A study of Arabidopsis thaliana with 9 samples.

Results

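The 6 loci described here belong to the xyloglucan endotransglucosylase/hydrolase (XTH) family, and their transcripts were followed in the stems of a pair of Arabidopsis lines with a lignin enzyme reduced or lost. They are XTH4 (AT2G06850), XTH9 (AT4G03210), XTH15 (AT4G14130), XTH24 (AT4G30270), XTH31 (AT3G44990) and XTH33 (AT1G10550). The genes were chosen by locus, and each was read by 1 named probe set, a group of short oligonucleotides that together report 1 transcript, so that 6 of 22746 probe sets tested are described. XTH33 was named by the platform annotation and the other 5 through the authors' table, which lists 3785 probe sets picked for change on these same arrays. A large share of changed genes among them is therefore no independent evidence.

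The arrays were Affymetrix ATH1 arrays of inflorescence stems from Arabidopsis thaliana of the Columbia-0 ecotype, 1.5 months old, grown with 16 h of light and 8 h of darkness. The 9 arrays form 3 groups of 3. One was an RNA interference line against HCT (HCT-RNAi), the hydroxycinnamoyl transferase of the middle of the lignin pathway. The others were ccr-1, a loss-of-function mutant in the cinnamoyl-CoA reductase that opens the branch to lignin monomers, and the wild type (WT). The promoter of the RNAi construct, the number of transformants, the ccr-1 lesion, and whether each array held 1 plant or a pool could not be taken from the sources used here. Since the labels do not state that replicate arrays stand for separate plants, p-values here measure only array-to-array spread, which may be technical.

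Xyloglucan is the main hemicellulose of the primary wall in Arabidopsis and binds to the surface of cellulose microfibrils. XTH enzymes cut its backbone. Most then join the new end to another xyloglucan chain (transglucosylase activity), which lets a wall extend or be rebuilt without losing polymer, whereas a few hand the end to water (hydrolase activity). In stems they act in elongating tissue and also in developing xylem and fibres, where primary wall is laid down before the secondary wall and its lignin.

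Of these 6 genes, 5 fell in HCT-RNAi stems, by 2.12-fold to 8.02-fold, while XTH31 rose 11.4-fold. Over all probe sets 27.7% were called lower and 32.9% higher in that comparison. In ccr-1 stems 5 genes fell, by 1.23-fold to 1.77-fold, and XTH9 did not pass the test (30.1% of all probe sets were called lower). The direct contrast of the 2 lines passed for all 6 genes (58.9% of all probe sets). XTH31 was thus called in opposite directions in the 2 lines.

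HCT itself served as a check of the labels. Its log2 difference between HCT-RNAi and wild type was -3.53 ± 0.05 (SE of the fit, n = 3 arrays per group), and that of CCR1 between ccr-1 and wild type was -1.81 ± 0.06. Pearson correlations between arrays ran from 0.997 to 0.999 within groups and from 0.949 to 0.960 between groups, across probe sets, which are not independent replicates. The defining markers of secondary-walled xylem and fibres were present on all wild-type arrays for 5 of the 5 named members of 7 listed. Markers of other organs moved with the lines. All 9 named floral organ markers of 10 listed rose in both lines, and all 9 are in the authors' table. Of all probe sets 32.9% were called higher in HCT-RNAi and 24.7% in ccr-1. The shares of the authors' table, through which alone these 9 were named, were 46.2% and 48.4%. The summed intensity of the floral markers was 267 to 283 in wild type, 1019 to 1046 in HCT-RNAi and 2994 to 3130 in ccr-1. The 9 seed storage markers summed to 169 to 182 in wild type, 167 to 171 in HCT-RNAi and 80927 to 83769 in ccr-1, and on the wild-type arrays none of the 9 was called present on all 3. The log2 signal of the 3' end of actin over its 5' end, a sign of RNA integrity and labelling, was highest in HCT-RNAi at 4.36 ± 0.02 (SD, n = 3), next in wild type at 3.98 ± 0.06 and lowest in ccr-1 at 3.86 ± 0.04. For GAPDH the same quantity was again highest in HCT-RNAi (1.78 ± 0.12) but was lowest in wild type (1.46 ± 0.06), with 1.61 ± 0.05 for ccr-1. The part of these differences in the XTH results was not tested. In whole stems, fewer cells of a type and less RNA per cell cannot be told apart.

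The first comparison asked how the 6 genes differ in stems with reduced HCT. All 6 were called at an adjusted p under 0.05, where 60.6% of all probe sets were called, so a call alone says little here. The sizes were less common: 5 of 6 were called with at least a 2-fold lower level, as were 5.79% of all probe sets, and 1 with at least a 2-fold higher level, as were 5.06%. Of the probe sets in the authors' table, which holds all 6, those shares were 34.8% and 30.4%. The arrays of HCT-RNAi and wild type did not overlap for any of the 6, nor for 66.6% of all probe sets. The median log2 difference of the 6 was -1.58, against -0.01 over all probe sets.

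XTH4 and XTH9 belong to the XTH enzymes known from the vascular tissue of Arabidopsis stems, where mutants in them have altered secondary walls in xylem. XTH4 had log2 intensities of 12.79, 12.69 and 12.70 on the wild-type arrays, 10.31, 10.35 and 10.16 on the HCT-RNAi arrays, and 12.46, 12.41 and 12.41 on the ccr-1 arrays. The HCT-RNAi arrays lay far below both other groups, no groups overlapped, and ccr-1 lay just under wild type. The fall in HCT-RNAi was 5.48-fold (log2 difference -2.45 ± 0.06, limma adjusted p = 4.82e-12), and that in ccr-1 was 1.23-fold (-0.30 ± 0.06, limma adjusted p = 0.00114).

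XTH9 gave 9.73, 9.69 and 9.80 in wild type, 8.72, 8.57 and 8.68 in HCT-RNAi, and 9.81, 9.76 and 9.76 in ccr-1, as log2 intensities. HCT-RNAi was again apart and low, but the ccr-1 and wild-type arrays were interleaved. XTH9 fell 2.12-fold in HCT-RNAi (-1.09 ± 0.06, limma adjusted p = 4.63e-09), the smallest fall of the 5. Its difference between ccr-1 and wild type was 0.04 ± 0.06 and did not pass (limma adjusted p = 0.638), and the group means were 9.78 and 9.74.

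XTH15 and XTH24 come from the large second branch of the family, whose members are mostly transglucosylases. XTH15, long known as XTR7 and used as a marker of shade responses, had log2 intensities of 8.10, 8.16 and 8.19 in wild type, 5.21, 5.29 and 4.93 in HCT-RNAi, and 7.44, 7.20 and 7.33 in ccr-1. The 3 groups formed 3 separate steps, with HCT-RNAi lowest and ccr-1 between. This was the deepest fall among the 6 genes in each line, 8.02-fold in HCT-RNAi (-3.00 ± 0.09, limma adjusted p = 2.36e-11) and 1.77-fold in ccr-1 (-0.82 ± 0.09, limma adjusted p = 5.37e-06). In HCT-RNAi it was the 85th largest fall of 22746 probe sets. The authors' detection calls marked XTH15 present on 2 of 3 HCT-RNAi arrays and on all others, so its low values lie near background there. With 32 added to each intensity before the log, a setting that damps dim values, the HCT-RNAi difference was -2.23.

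XTH24, first described as the meristem gene MERI5 and also recorded as SEN4 for its expression in senescence, gave 12.83, 12.85 and 12.80 in wild type, 10.93, 10.93 and 11.00 in HCT-RNAi, and 12.40, 12.46 and 12.48 in ccr-1. No array of one group reached the range of another. The fall was 3.67-fold in HCT-RNAi (-1.88 ± 0.05, limma adjusted p = 1.26e-11) and 1.31-fold in ccr-1 (-0.38 ± 0.05, limma adjusted p = 3.90e-05). In the RefSeq gene table of the TAIR10.1 assembly, XTH24 is followed on chromosome 4 by XTH18 and then XTH19 as the next protein-coding genes. No other of the 6 had an XTH gene within 2 protein-coding genes on either side. In HCT-RNAi the log2 differences of XTH18 and XTH19 were -4.29 and -2.79, so all 3 adjacent genes were lower there. In ccr-1 the neighbours diverged, with XTH18 at -2.63 and XTH19 at 0.34, both called. The probe sets of these 3 genes do not carry a suffix for shared transcripts. Cross-hybridisation between the 3 paralogs was not tested.

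XTH33 encodes a family member with a predicted membrane anchor. Its log2 intensities were 6.34, 6.29 and 6.33 in wild type, 5.15, 4.91 and 5.03 in HCT-RNAi, and 6.12, 5.88 and 5.88 in ccr-1. The groups did not overlap, and ccr-1 lay closer to wild type than to HCT-RNAi. XTH33 fell 2.45-fold in HCT-RNAi (-1.29 ± 0.08, limma adjusted p = 1.62e-08) and 1.28-fold in ccr-1 (-0.36 ± 0.08, limma adjusted p = 0.00168). The authors' detection calls marked it present on 1 of 3 HCT-RNAi arrays and on all 3 arrays of each other group. With 32 added to each intensity, the HCT-RNAi difference shrank to -0.79, under the 2-fold mark, so that 4 genes and not 5 were at least 2-fold lower under that setting.

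XTH31 went the other way. Its product is known in Arabidopsis mainly as a xyloglucan hydrolase, and in roots its loss lowers xyloglucan-acting activity. The log2 intensities were 7.96, 7.89 and 7.83 in wild type, 11.47, 11.46 and 11.30 in HCT-RNAi, and 7.45, 7.39 and 7.63 in ccr-1, and the gene was called present on all 9 arrays. The HCT-RNAi arrays stood more than 3 log2 units above every other array, and the ccr-1 arrays lay below the wild-type arrays without overlap. The rise in HCT-RNAi was 11.4-fold (3.51 ± 0.07, limma adjusted p = 1.26e-12), the 59th largest of 22746. The fall in ccr-1 was 1.32-fold (-0.40 ± 0.07, limma adjusted p = 0.000489). The ratios of linear group means in the authors' deposited table were 11.4 for HCT-RNAi over wild type and 0.757 for ccr-1 over wild type.

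**Figure D1:**
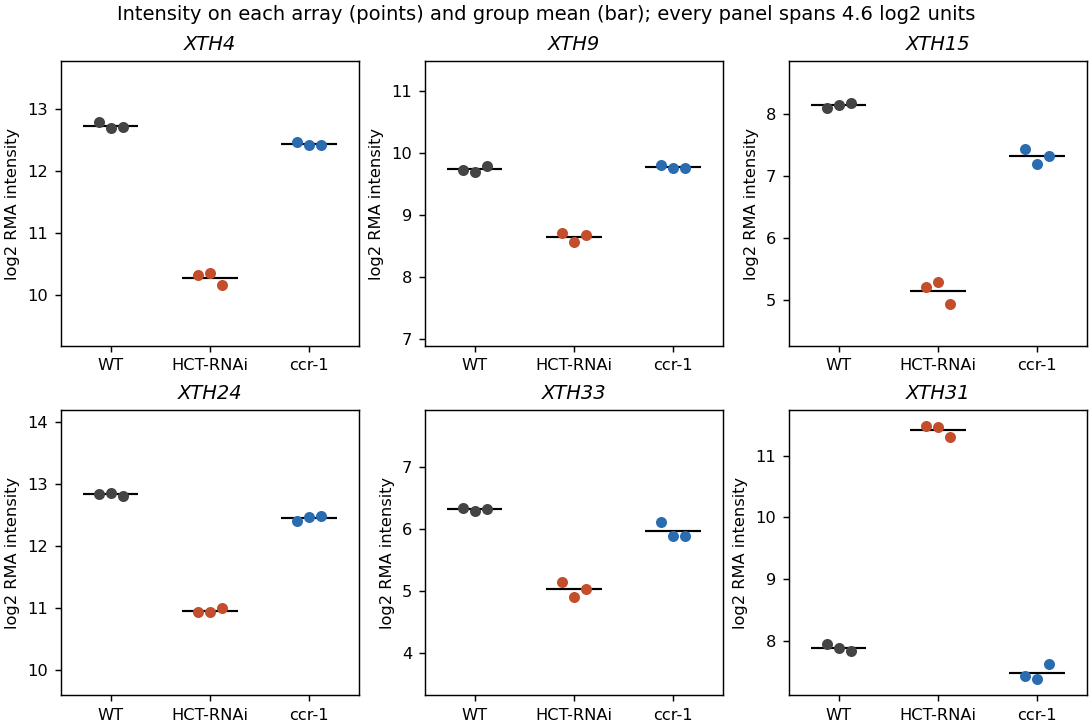
Log2 RMA intensity (y axis) of each of the 6 genes on the 9 arrays, by group (x axis). Points are single arrays, bars are group means, and every panel spans the same number of log2 units; HCT-RNAi lies lowest in 5 panels and highest for XTH31.

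The order of the groups followed 3 patterns. For XTH4, XTH15, XTH24 and XTH33 wild type was highest, ccr-1 next and HCT-RNAi lowest, and each neighbouring pair passed the test. For XTH9 the top pair, ccr-1 and wild type, did not differ beyond the spread between arrays. For XTH31 the order was HCT-RNAi, wild type, ccr-1, and both steps passed. The spread within groups was small beside the HCT-RNAi changes: over the 6 genes the SD ran from 0.02 to 0.05 in wild type except for XTH31 at 0.06, from 0.04 to 0.19 in HCT-RNAi and from 0.03 to 0.14 in ccr-1. HCT-RNAi replicate 3 gave the lowest value of its group for XTH4, XTH15 and XTH31, and the highest for XTH24.

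The second comparison asked the same of ccr-1. Here 5 of 6 genes were called (54.9% of all probe sets), each of them lower, as were 30.1% of all probe sets, and none was called higher, against 24.7% (44.4% and 48.4% of the authors' table). By limma at an unadjusted p under 0.05 the count of higher genes was also 0. The same 5 did not overlap with wild type, as was so for 59.3% of all. None of the 6 reached a 2-fold change in either direction in limma's fit, whereas 3.71% of all probe sets were called at least 2-fold lower and 5.23% at least 2-fold higher. The median of the 6 was -0.37, against -0.04 over all probe sets. The falls of XTH4 (-0.30), XTH33 (-0.36), XTH24 (-0.38) and XTH31 (-0.40) formed a narrow band, and that of XTH15 was deeper. These changes sat on arrays that carried the seed storage signal given above. Secondary wall markers fell on the same arrays and on those of HCT-RNAi, 5 of 5 named in each line. Their median was -1.68 in ccr-1 and -1.24 in HCT-RNAi. Called lower were 30.1% of all probe sets in ccr-1 and 27.7% in HCT-RNAi. All 5 were named only through the authors' table, which was picked for change, so this count is no independent evidence. Among its probe sets, 44.4% were called lower in ccr-1 and 45.8% in HCT-RNAi. The summed intensity of the 5 markers was 19986 to 21729 in wild type, 6466 to 7288 in HCT-RNAi and 6422 to 6678 in ccr-1. Taken singly, 4 of these 5 markers did not overlap between the 2 lines, and neither did 63% of all probe sets. The 4 were XCP1 (0.83, ccr-1 minus HCT-RNAi), LAC4 (0.39), CESA4 (-0.44) and CESA8 (-0.15), the last of which was not called. None of the 6 XTH genes overlapped between the lines either. The part of the wall markers in the XTH results was not tested.

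The third comparison set the lines against each other, which tests directly whether their XTH levels differ. Each of the 6 passed, and none overlapped between the lines (63% of all probe sets did not). In ccr-1, 5 were above their HCT-RNAi level (25.4% of all probe sets), 4 of them at least 2-fold (4.8%). XTH31 alone of the 6 was below it (33.6%), by more than 2-fold (2.97%). Of the authors' table, which holds all 6, 53.3% were called higher in this contrast and 36.7% lower. The log2 difference, ccr-1 minus HCT-RNAi, was 2.18 ± 0.09 for XTH15 (limma adjusted p = 7.72e-10) and 2.16 ± 0.06 for XTH4 (limma adjusted p = 2.81e-11). XTH24, XTH9 and XTH33 followed at 1.49 ± 0.05, 1.12 ± 0.06 and 0.93 ± 0.08. With 32 added to each intensity, the XTH33 difference was 0.55. For XTH31 the ccr-1 level was 15.1-fold lower (-3.92 ± 0.07, limma adjusted p = 8.01e-13), and of the 22746 probe sets it had the third largest fall in this contrast. This contrast shares its arrays with the other comparisons, so the 3 sets of values are not independent.

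**Figure D2:**
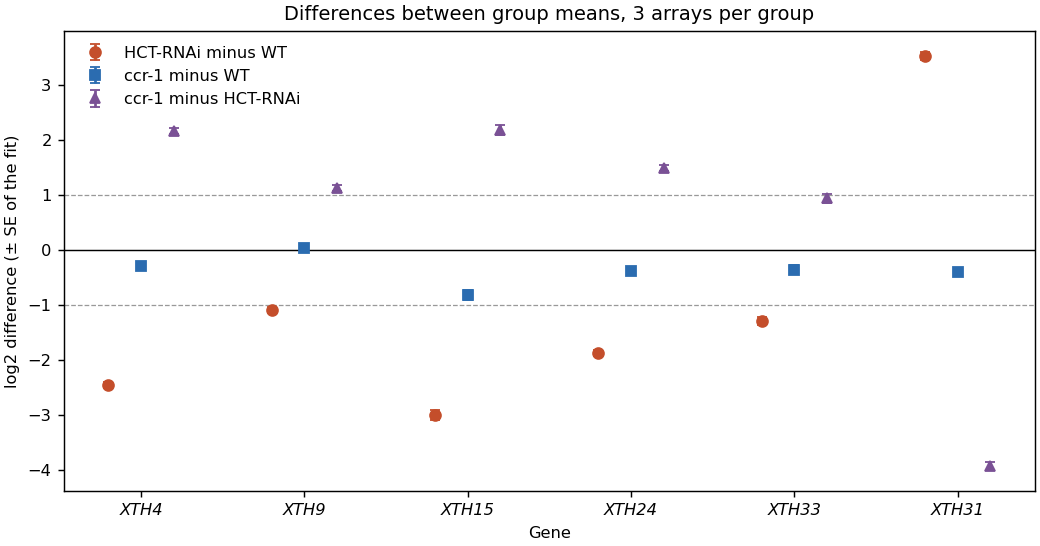
Log2 difference (y axis, ± SE of the fit) of each gene (x axis) in the 3 contrasts, with 3 arrays per group; dashed lines mark a 2-fold change. The HCT-RNAi differences run from -3.00 to 3.51, and the ccr-1 differences from wild type all lie between -0.82 and 0.04.

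Clock genes that peak in the evening also moved in HCT-RNAi. All 3 named of 5 listed rose there, GI by 1.22, ELF4 by 1.23 and PRR5 by a like amount on the log2 scale. Of all probe sets 32.9% were called higher in that comparison, and 5.06% at least 2-fold higher. All 3 genes are in the authors' table, and ELF4 and PRR5 were named only through it. The table's shares were 46.2% called higher and 30.4% at least 2-fold higher. The listed morning clock genes LHY and CCA1 had no named probe set. PRR5 was called present on 1 of 3 wild-type arrays and 1 of 3 ccr-1 arrays, so it lay near background in both groups. The summed intensity of the 3 genes was 266 to 273 in wild type, 617 to 634 in HCT-RNAi and 315 to 338 in ccr-1. Whether the stems of all groups were cut at the same hour was not stated in the labels, and the part of the hour in the XTH changes was not tested.

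The other XTH genes gave a wider view of the family. Of 27 listed, 19 had a named probe set and 16 of these are in the authors' table, so their shares of changed genes are inflated. In HCT-RNAi 12 of the 19 fell, 2 rose and 5 did not pass, with a median log2 difference of -1.05. Of the probe sets in the authors' table, 45.8% were called lower and 46.2% higher. The fitted falls were deepest in XTH30 (-4.38 ± 0.08) and XTH18 (-4.29 ± 0.09, called present on 1 of 3 HCT-RNAi arrays, so near background there), then XTH6 (-3.35 ± 0.06), XTH22 (-2.86 ± 0.06), which is the touch-induced gene TCH4, and XTH19 (-2.79 ± 0.09). Smaller falls were those of XTH8 (-1.88), XTH16 (-1.36), XTH32 (-1.29), XTH23 (-1.11) and XTH27 (-1.05). No other named XTH gene rose by 2-fold or more in HCT-RNAi: XTH11 rose by 0.86 and XTH29 by 0.44, against 3.51 for XTH31. XTH32, the closest relative of XTH31 in the family and likewise predicted to be a hydrolase, was at -1.29 ± 0.07 in HCT-RNAi and -1.30 ± 0.07 in ccr-1, and the lines did not differ beyond their spread for it (-0.01 ± 0.07, limma adjusted p = 0.927). In the direct contrast 15 of the 19 were above their HCT-RNAi level in ccr-1 and none was called below it (53.3% and 36.7% of the authors' table; 0 below by limma at an unadjusted p under 0.05), whereas XTH31 was below it.

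**Figure D3:**
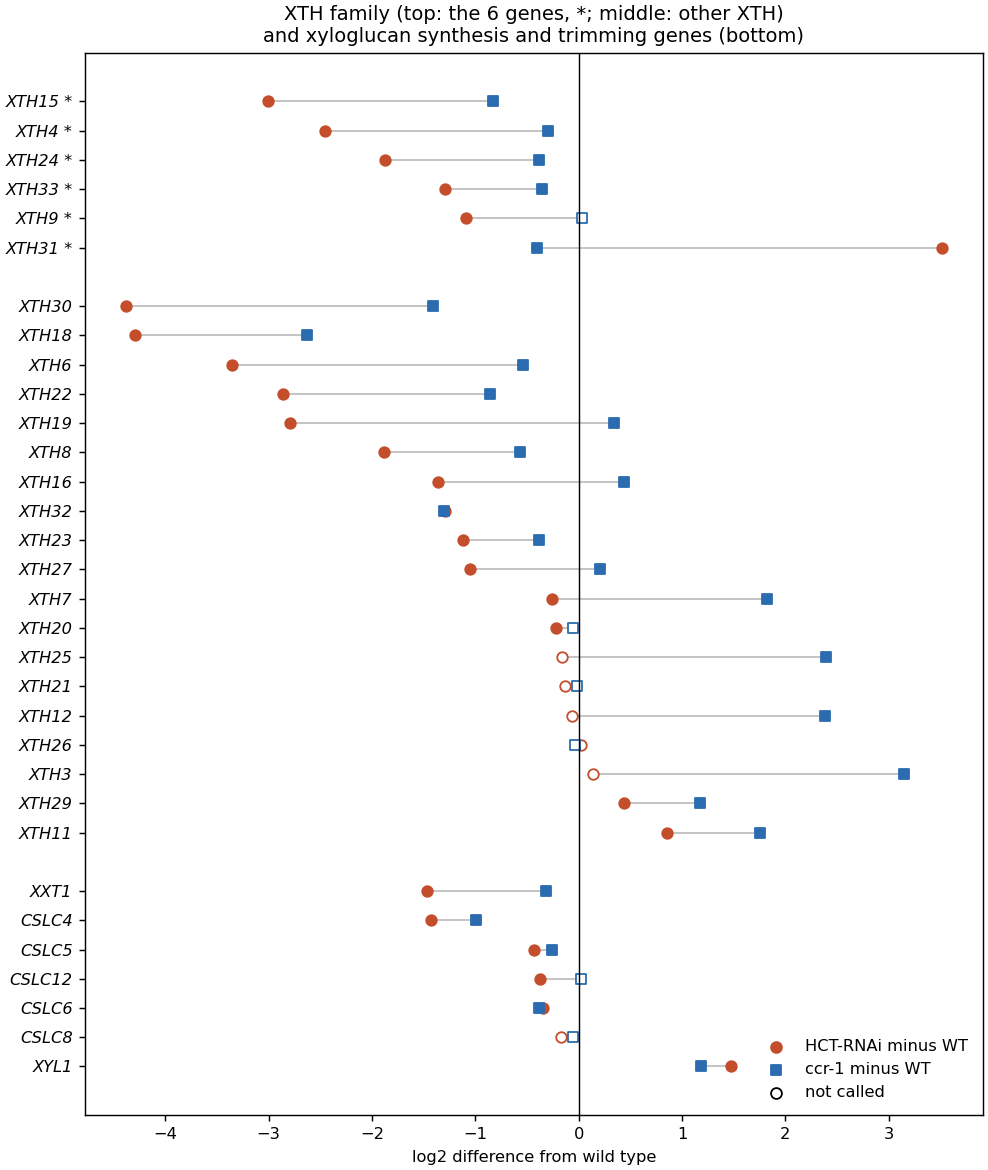
Log2 difference from wild type (x axis) of the 6 genes (starred), the 19 other named XTH genes and 7 genes of xyloglucan synthesis and trimming (y axis), in HCT-RNAi (circles) and ccr-1 (squares); open symbols were not called. XTH31 is the XTH gene farthest to the right in HCT-RNAi, at 3.51.

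Genes that make or trim xyloglucan were named in 7 of 18 cases. In HCT-RNAi 5 fell, XYL1 rose and CSLC8 did not pass. Of all probe sets 27.7% were called lower and 32.9% higher in that comparison. Of the 7 genes, 3 are in the authors' table. CSLC4, the glucan synthase that builds the backbone on which XTH enzymes act, fell in both lines, with log2 differences of -1.43 and -0.99 in HCT-RNAi and ccr-1. XXT1, a xylosyltransferase that adds its side chains, fell as well (-1.47 and -0.31). XYL1, the α-xylosidase that trims xyloglucan fragments in the wall, rose by 1.48 ± 0.06 in HCT-RNAi and 1.19 ± 0.06 in ccr-1. Of the other members CSLC5, CSLC6, CSLC8 and CSLC12, the largest difference from wild type was -0.43, for CSLC5 in HCT-RNAi.

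The 6 genes were then compared by their profiles over the 9 arrays, each centred on its own mean. The root mean square difference of log2 values was the measure of likeness. Profiles were not scaled, so the size of a change counts in this measure as well as its direction. Among the 6, XTH9 and XTH33 were the nearest pair at 0.17, followed by XTH4 and XTH15 at 0.26 and XTH24 and XTH33 at 0.29. XTH31 was 2.28 or more from each of the others. Of 14878 other named probe sets, those nearest to XTH4 were AT3G49790 at 0.09, AT2G20670 at 0.10 and LOX3, a lipoxygenase gene of jasmonate synthesis, at 0.12. Nearest to XTH9 were APT3, an adenine phosphoribosyltransferase gene, at 0.05, WIH2 at 0.06 and AT2G17300 at 0.06. XTH15 was nearest to AKINBETA1, a subunit gene of the SnRK1 kinase complex, at 0.09, to AT5G54530 at 0.10 and to the arabinogalactan peptide gene AGP13 at 0.10. XTH24 was nearest to AT4G32340, AT5G07580 and AT3G52060, at 0.06 each, and XTH33 to AT1G09575, the receptor kinase gene PERK1 and AT2G28410, at 0.08, 0.09 and 0.09. XTH31 had no neighbour as near: ISA3, a starch-debranching isoamylase gene, was at 0.18, AT1G56300 at 0.31 and the acetyltransferase gene NATA1 at 0.43. ISA3 differed from wild type by 3.57 in HCT-RNAi and by -0.04 in ccr-1, so its ccr-1 arrays did not drop below wild type as those of XTH31 did. With 9 arrays in 3 groups, such likeness reflects mainly the 3 group means and is given as a description.

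**Figure D4:**
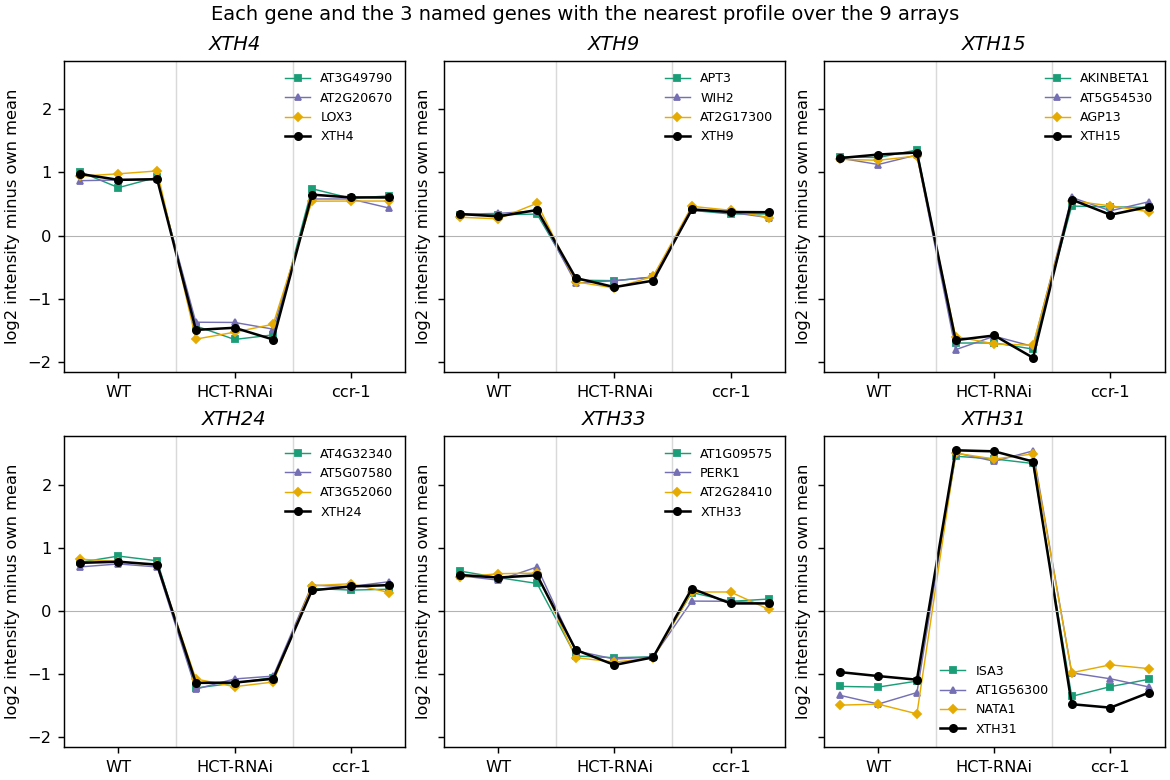
Log2 intensity minus the gene's own mean over the 9 arrays (y axis) for each of the 6 genes (black) and its 3 nearest named genes, with arrays grouped by genotype (x axis); the lines only guide the eye. The neighbours of XTH31 follow its rise in HCT-RNAi but spread more widely in wild type and ccr-1 than those of the other 5 genes.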

How the data were processed

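Total RNA of 9 stem samples was labelled with biotin (1.5 µg each) and hybridised to ATH1 arrays, per the labels' protocols. The submitters' processing notes name RMA and MAS5, with no version or setting. The deposited values are linear intensities, and the authors' table repeats them (largest difference 0) with detection calls and the ratio of linear group means, which the authors computed per the file headers. RMA makes array distributions alike, so a change in total RNA cannot be seen. No depth applies: the number of arrays limits the precision.

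Here log2 was taken, the 64 controls were dropped, and 22746 probe sets were fitted with limma 3.58.1 in R 4.3.3 (a mean per group over all 9 arrays, eBayes, Benjamini-Hochberg over all probe sets, called under 0.05). The code was tested on simulated data. Groups and replicate numbers came from sample titles. Names came from the platform annotation or the authors' locus column, leaving out those with a shared-transcript suffix, which named 14884. Named genes were the 6 XTH genes, list members called with a 2-fold change in any contrast, and the 3 nearest profiles per gene. XTH20, XTH21, CSLC5, CSLC6, CSLC8 and CSLC12 fall outside that rule and were named after their values were seen. The genes and lists were chosen with earlier results of these data known. The lists of phloem and epidermis markers had 2 of 4 and 3 of 4 members named, all of them only through the authors' table. In HCT-RNAi 1 and 2 rose and 1 and 1 fell, and in ccr-1 0 and 3 rose and 1 and 0 fell. Shares of all probe sets called higher and lower were 32.9% and 27.7% in HCT-RNAi, and 24.7% and 30.1% in ccr-1. Within the authors' table they were 46.2% and 45.8% in HCT-RNAi, and 48.4% and 44.4% in ccr-1. No sequence or coordinate is printed, since none was used here.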

Additional observations from a re-analysis of the deposited data

Results flagged for a closer look

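XTH31 was called in opposite directions against wild type in the 2 lines, higher in HCT-RNAi and lower in ccr-1, and the direct contrast of ccr-1 with HCT-RNAi was -3.92 on the log2 scale. Of the other family members, XTH7, XTH16, XTH19 and XTH27 were called in opposite directions the other way round, lower in HCT-RNAi and higher in ccr-1. Their direct differences, ccr-1 minus HCT-RNAi, were 2.09, 1.80, 3.14 and 1.26 on the log2 scale, and each passed the limma test.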

How the results depend on the processing

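The 18 differences of the 6 genes were recomputed under 15 alternatives: 6 other settings of scaling, filter, offset, fit or probe sets, and 9 fits that each left out 1 array. All 270 values kept their direction and their side of the threshold. Leaving out XTH9 in ccr-1 against wild type, which was not called in any of them (limma adjusted p from 0.456 to 0.907), the highest limma adjusted p was 0.00873, for XTH33 in ccr-1 against wild type. Median centring of each array changed the balance of all calls: the share of calls that were higher went from 54.2% to 39.5% in HCT-RNAi against wild type, and from 43.1% to 53.8% in ccr-1 against HCT-RNAi. It moved the median of all probe sets in HCT-RNAi against wild type from -0.01 to -0.11. The counts of called probe sets stayed within 1.5 times of those reported under every alternative. In the family and pathway lists, calls of XTH20, XTH21, XTH25, CSLC5 and CSLC8 changed under at least 1 alternative, all with differences between -0.27 and 0.24 there. No paired analysis was possible because the array numbers run from 1 to 9 without repeats across the groups. Among the XTH genes with detection calls, low signal limits XTH3, XTH12, XTH15, XTH18 and XTH33 in HCT-RNAi. It also limits XTH3, XTH11 and XTH12 in wild type. In each of these cases not every array was called present.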

Other observations

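Some other XTH genes rose in ccr-1 stems, on arrays with high seed storage and floral signal (summed intensities of 80927 to 83769 and 2994 to 3130). Of the 19 other named family members 9 were called higher and 7 lower in ccr-1 against wild type (48.4% and 44.4% of the authors' table). That table holds 16 of the 19, and the share called higher was near that of the table. At least 2-fold higher were 6 of the 19, as were 5.23% of all probe sets. These 6 are all in the authors' table, which was picked for change, so 5.23% is too low a measure for them. The table's share of probe sets at least 2-fold higher was 30.4% in HCT-RNAi and was not computed for ccr-1. XTH3, called present on 1 of 3 wild-type arrays and so near background there, had a fitted difference of 3.15 ± 0.13 on the log2 scale. XTH25 was higher by 2.39 ± 0.10, XTH7 by 1.83 ± 0.06 and XTH29 by 1.17 ± 0.09. XTH12 and XTH11 were called present on no wild-type array and on all ccr-1 arrays, so they lay near background in wild type. Their fitted rises in ccr-1 were 5.20-fold and 3.38-fold (limma adjusted p = 6.00e-10 and 2.13e-08). On each wild-type array their signal lay above the lowest signal called present in the authors' table. These folds are therefore fitted values and not lower limits. In HCT-RNAi, where seed storage transcripts summed to 167 to 171, XTH3, XTH12 and XTH25 did not pass (0.14, -0.06 and -0.16). XTH3 was called present on 0 of 3 HCT-RNAi arrays and XTH12 on 1 of 3. For these 2 genes the difference thus lies between values near background in both groups. In the same comparison XTH11 and XTH29 were called higher (0.86 and 0.44) and XTH7 was called lower (-0.26). The part of seeds or flowers in these rises was not tested. None of XTH4, XTH9, XTH15, XTH24, XTH31 and XTH33 rose in ccr-1.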
